A study of Mus musculus with 12 samples.

Results

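Genes of fibronectin adhesion were followed in the RNA of mouse retinas, namely Fn1, Tgm2, the integrin α subunits Itga1, Itga4, Itga5, Itga8 and Itgav, and the β subunits Itgb1, Itgb3 and Itgb5. They are 10 of the 36131 genes in the count table, selected on a list of symbols drawn up with earlier results of these retinas known, and each symbol matched 1 row. The levels and group differences below are therefore descriptions of the listed genes, and the edgeR calls show where each gene lay against the thresholds without being independent support. All 10 had enough counts to enter both fits.

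Retinas of 12 wildtype C57BL/6J mice aged P18 were sequenced, 1 library per animal and 4 animals per group. RA-PBS mice (animals 1 to 4) were kept in room air and given PBS. O2-PBS mice (animals 5 to 8) breathed 75% O2 from P7, were returned to room air on P12 and were given PBS. O2-IC100 mice (animals 9 to 12) had the same oxygen exposure and received IC100, a humanized antibody against the inflammasome adaptor ASC, at 10 μg/g. Injections were intraperitoneal on P12, P14 and P16 according to the labels. The oxygen exposure is the oxygen-induced retinopathy (OIR) model, in which vessels are lost in high oxygen and abnormal vessels grow after the return to room air. The controls of IC100 carried PBS, not an antibody.

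Fibronectin is a glycoprotein of the extracellular matrix that growing vessels deposit and that endothelial tip cells use as a track in the developing retina. Integrins are cell surface receptors made of 1 α and 1 β subunit, and the pair decides which matrix protein is bound. Transglutaminase 2 crosslinks matrix proteins and also sits on the cell surface as a co-receptor that binds fibronectin together with β1 and β3 integrins.

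Expected counts summed to 14907143 to 24438082 per retina, and levels are given as CPM, counts scaled to library size by the TMM method. Crystallin genes, which mark lens, made up 58.98% of the counts of O2-IC100 animal 10 and 0.00691 to 4.51% of the others, with RA-PBS animals 2, 3 and 4 at 1.26, 4.51 and 1.45%. The summed level of 8 rod genes was 34400 to 41000 CPM in 11 retinas and 9770 CPM in animal 10. Summed markers of retinal pigment epithelium were 8670 CPM in animal 10 against 59.8 to 343 CPM in the rest, and those of fibroblasts 686 CPM against 21.5 to 85 CPM. Each comparison is accordingly given with all 12 animals and without animal 10. A gene was called at a fold change of at least 1.5, p under 0.05 and a Benjamini-Hochberg adjusted p under 0.1 in edgeR's quasi-likelihood test over all tested genes.

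The stretches before the start of 4 integrin genes are shown first, a pair that was higher in O2-PBS (Itga1 and Itga5) and a pair that was not (Itgav and Itgb5). They are the 250 bases upstream of the start in RefSeq on GRCm38.p6, at chr13:115101965-115102214 (minus strand), chr15:103366792-103367041 (minus strand), chr2:83724147-83724396 (plus strand) and chr16:33829415-33829664 (plus strand). Capitals mark GC boxes, the letters GGGCGG on either strand.
Itga1: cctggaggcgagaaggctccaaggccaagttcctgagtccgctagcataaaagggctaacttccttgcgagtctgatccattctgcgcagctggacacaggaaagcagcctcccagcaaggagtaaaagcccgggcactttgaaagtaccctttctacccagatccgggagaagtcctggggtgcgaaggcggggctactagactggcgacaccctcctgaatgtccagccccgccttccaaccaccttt
Itga5: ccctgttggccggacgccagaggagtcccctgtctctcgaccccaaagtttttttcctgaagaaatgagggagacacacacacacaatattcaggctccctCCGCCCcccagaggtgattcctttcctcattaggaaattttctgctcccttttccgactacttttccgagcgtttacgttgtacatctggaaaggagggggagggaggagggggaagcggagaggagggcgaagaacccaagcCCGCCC
Itgav: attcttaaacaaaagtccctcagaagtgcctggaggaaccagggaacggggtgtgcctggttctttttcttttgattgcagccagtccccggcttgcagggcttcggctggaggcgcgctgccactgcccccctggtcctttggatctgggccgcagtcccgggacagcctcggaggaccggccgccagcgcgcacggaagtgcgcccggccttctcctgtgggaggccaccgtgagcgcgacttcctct
Itgb5: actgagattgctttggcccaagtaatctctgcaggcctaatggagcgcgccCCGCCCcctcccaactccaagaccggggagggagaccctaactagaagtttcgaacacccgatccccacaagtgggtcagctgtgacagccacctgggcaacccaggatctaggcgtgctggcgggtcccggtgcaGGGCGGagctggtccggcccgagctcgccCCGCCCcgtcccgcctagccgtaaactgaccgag

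Windows of 7 of the 10 genes were found in the RefSeq table; Fn1, Tgm2 and Itgb3 had no entry. A GC box stood in 4 of the 7 windows (Itga4, Itga5, Itgb1 and Itgb5), where 32.7% of 32851 promoter windows of the same length held one. Of the sequences shown, Itga5 held 2, Itgb5 held 3, and Itga1 and Itgav held none, so 1 gene of each pair held it. The letters ACGTG (hypoxia response core), TGANTCA (AP-1) and TATAAA, the TATA box, were in none of the 7 windows, against 16.6, 6.75 and 12.4% of all windows. GGAATG (TEAD) was in that of Itgb1 only, against 12.6% of all. These motifs were chosen after expression values were known, and the absence of a match describes only these 250 bases. GC content of the 7 windows was 55.6 to 68%, with a median of 52.4% over all windows.

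Fibronectin was 3.43 times as high in O2-PBS as in RA-PBS and stood near the room air level in IC100-treated retinas. Fn1 measured 86.8, 109, 114 and 49.6 CPM in RA-PBS animals 1 to 4. In O2-PBS animals 5 to 8 it measured 457, 225, 256 and 292 CPM. O2-IC100 animals 9 to 12 had 106, 33, 112 and 97.6 CPM. Every O2-PBS retina was above every other retina, and the RA-PBS range held the IC100 values of animals 9, 11 and 12. Animal 10 had the lowest level of all 12.

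Tgm2, the crosslinking enzyme and fibronectin co-receptor, followed the same order at a lower level. Its values were 3.76, 4.78, 6.27 and 3.89 CPM in RA-PBS, 24, 15.2, 15.1 and 13.5 CPM in O2-PBS, and 7.61, 8.07, 7.77 and 8.18 CPM in O2-IC100. The 3 groups did not overlap, with IC100 between the others. The 4 IC100 retinas, animal 10 included, had a mean of 7.91 ± 0.266 CPM (SD, n = 4), whereas animal 5 stood above the other 3 O2-PBS retinas. Exons of Rprd1b cover 370 bases of Tgm2 on the opposite strand (8.03% of its exon length). Mean Rprd1b levels were 63.9 CPM in RA-PBS, 59.6 CPM in O2-PBS and 57.1 CPM in O2-IC100 without animal 10. Use of strand in the counting is not stated, so reads from the shared bases cannot be told apart.

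Itga1, the α subunit of a collagen and laminin receptor of endothelium and mural cells, measured 8.07, 10.3, 15.6 and 11.6 CPM in RA-PBS, 40.4, 30.1, 37.6 and 47 CPM in O2-PBS, and 17.9, 13.5, 19.7 and 23.1 CPM in O2-IC100. O2-PBS stood apart from both other groups, and IC100 overlapped with RA-PBS through animal 10 only. Itga5, whose pair with Itgb1 is the classical fibronectin receptor, measured 5.72, 3.14, 5.88 and 4.1 CPM in RA-PBS, 18.6, 11, 10.2 and 14.5 CPM in O2-PBS, and 6.28, 11.5, 6.47 and 7.59 CPM in O2-IC100. Animal 10 was the 1 IC100 retina inside the O2-PBS range.

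Itga4, which pairs with Itgb1 to bind fibronectin and VCAM1, measured 63.5, 125, 130 and 83.5 CPM in RA-PBS, 203, 210, 202 and 195 CPM in O2-PBS, and 133, 25.9, 138 and 137 CPM in O2-IC100. O2-PBS had an SD of 6.28 CPM around a mean of 203 CPM (n = 4) and lay above every other retina. Its exons overlap those of Cerkl, a gene expressed in photoreceptors, over 1124 bases on the opposite strand (8.04% of the Itga4 exon length), and whether the counting used strand is not stated. Cerkl had mean levels of 40.7 CPM in RA-PBS, 81.8 CPM in O2-PBS and 54.3 CPM in O2-IC100 without animal 10, and reads from the shared bases cannot be told apart.

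Among the β subunits, Itgb3 was the scarcest and changed most. Itgb3, the partner of Itgav on sprouting endothelium and also a platelet integrin, measured 0.785, 0.965, 1.39 and 1 CPM in RA-PBS, 5.66, 3.59, 4.01 and 4.26 CPM in O2-PBS, and 0.851, 10.8, 1.77 and 1.52 CPM in O2-IC100. These CPM rest on 14 to 25 counts in RA-PBS, 69 to 94 in O2-PBS, and 16, 86, 37 and 31 in O2-IC100. All O2-PBS values were above all others except that of animal 10, the highest of the 12.

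Itgb1, the shared partner of most α subunits, measured 75.7, 60.4, 81.9 and 94.9 CPM in RA-PBS, 139, 106, 124 and 137 CPM in O2-PBS, and 107, 306, 114 and 113 CPM in O2-IC100. Both oxygen groups were above room air in every retina, and IC100 retinas 9, 11 and 12 lay inside the O2-PBS range.

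Itgb5, a vitronectin receptor subunit that pairs with Itgav, showed no such order. It ranged from 47 to 66 CPM in RA-PBS and from 48.6 to 56 CPM in O2-PBS, and was 52.3 to 53.3 CPM in IC100 retinas 9, 11 and 12 but 444 CPM in animal 10. Itgav itself ranged from 43.7 to 65.4 CPM in RA-PBS and from 53.7 to 77.9 CPM in O2-PBS, and was 41.9 to 46.7 CPM in those 3 IC100 retinas but 316 CPM in animal 10. Itga8, a fibronectin and nephronectin receptor subunit of mural and mesenchymal cells, stayed between 1.51 and 3.5 CPM in all 12 retinas on 12 to 64 counts each, and its 3 groups overlapped.

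**Figure D1:**
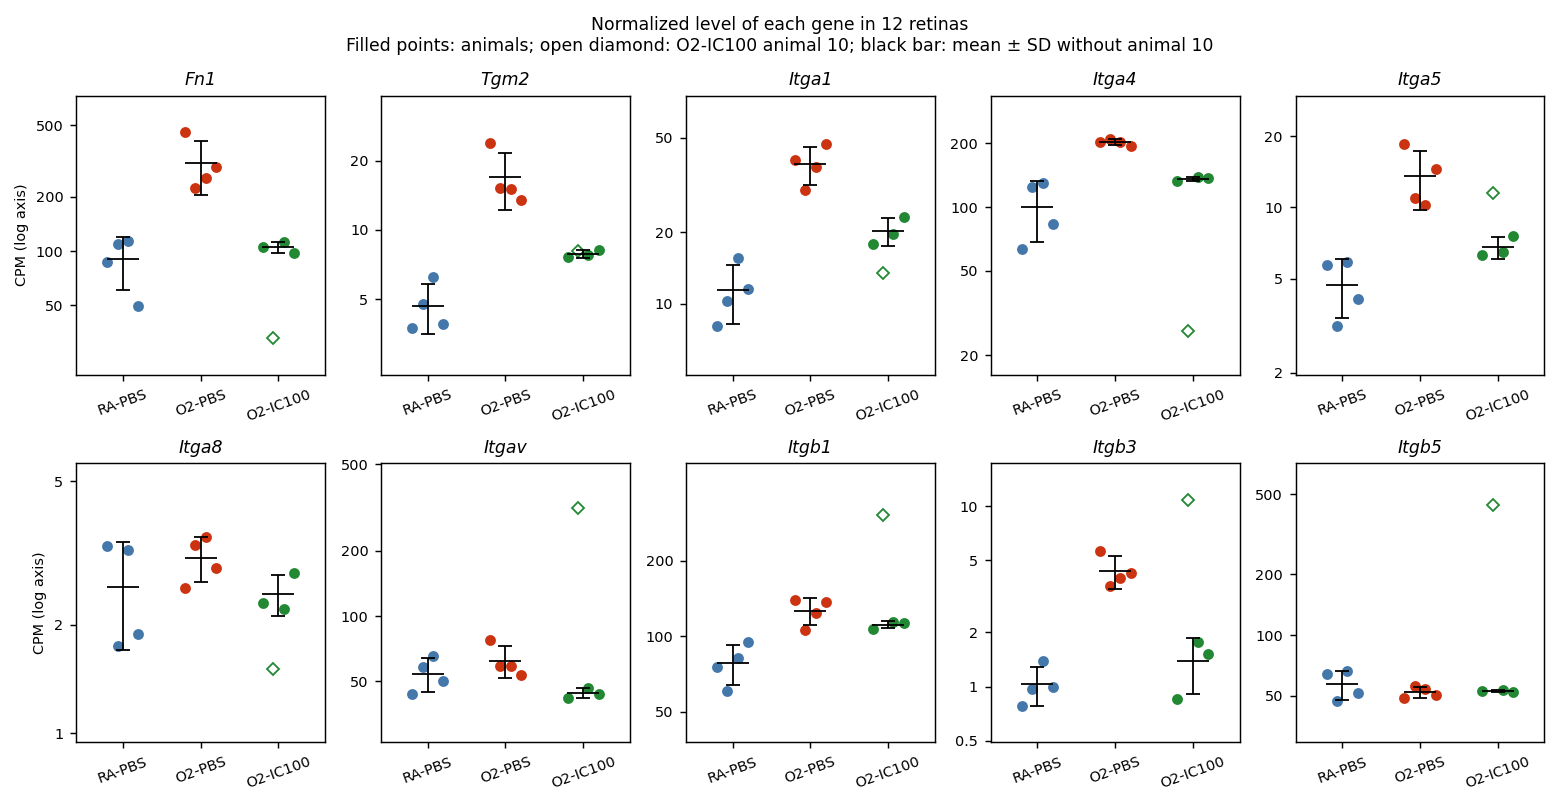
CPM of each gene on a log axis in the 12 retinas, by group, with filled points for animals, an open diamond for O2-IC100 animal 10 and a bar for mean ± SD without that animal. Fn1, Tgm2, Itga1, Itga4 and Itgb3 sit highest in O2-PBS when animal 10 is set aside, while the diamonds of Itgav (316 CPM) and Itgb5 (444 CPM) stand far above their group.

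The first comparison asks which of these genes differ between OIR and room air retinas under PBS. With all 12 animals, 4 of the 10 genes were called higher in O2-PBS (Fn1, Tgm2, Itga1 and Itga5) and 0 lower, where 0.782% of 16489 tested genes were called higher and 0.0243% lower. Without animal 10, 7 were called higher, adding Itga4, Itgb1 and Itgb3, and again 0 lower, against 4.09% higher and 2.18% lower of 16688 genes. The 8 libraries compared were the same in both fits, and what changed was the estimate of spread, as the SE of Itgb3 was 0.68 with animal 10 and 0.28 without it.

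The log2 fold changes without animal 10 were 1.78 ± 0.26 (SE) for Fn1, 1.86 ± 0.20 for Tgm2 and 1.77 ± 0.18 for Itga1. Those of Itga5 and Itga4 were 1.53 ± 0.23 and 1.01 ± 0.17. Among β subunits the value was 2.08 ± 0.28 for Itgb3 and 0.69 ± 0.13 for Itgb1. The 3 genes without a call gave 0.27 ± 0.25 (Itga8), 0.20 ± 0.13 (Itgav) and -0.13 ± 0.11 (Itgb5). The median of the 10 genes was 1.27, and that of all tested genes was -0.007. With 12 animals the count was 2 when any 1 of animals 1, 2, 4, 5 or 8 was left out. It was 7 both in the fit of only these groups and with a lens level covariate, but not for the same genes. The lens covariate called Itgav and not Itga4. The share of all genes called in these settings was not counted. Without animal 10 the count was 7 in each of the 23 alternatives, lens and Y-linked covariates included. Summed Y-linked levels were 232, 273, 223 and 5.63 CPM in RA-PBS animals 1 to 4. In O2-PBS animals 5 to 8 they were 7.95, 9.84, 8.3 and 230 CPM. Their part in the 7 calls was not tested beyond that covariate.

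The second comparison asks what differs between IC100 and PBS in OIR retinas. In the edgeR fit of 12 animals, 0 of the 10 genes were called in either direction, as were 0% of tested genes higher and 0% lower, while 5 of the 10 genes and 2784 of all genes had an unadjusted p under 0.05. DESeq2 called 3 of the 10 lower, and 28 genes higher and 84 lower in all. Without animal 10, edgeR called 5 of the 10 lower in O2-IC100 (Fn1, Tgm2, Itga1, Itga5 and Itgb3) and 0 higher, against 0.731% lower and 0.216% higher of all tested genes.

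Fn1 was 0.347 times its O2-PBS level without animal 10, a log2 fold change of -1.53 ± 0.29 (SE), and Itgb3 was 0.321 times, -1.64 ± 0.30. The log2 fold changes of Tgm2, Itga5 and Itga1 were -1.09 ± 0.21, -0.98 ± 0.24 and -0.92 ± 0.19. Itga4 and Itgav also did not overlap between the groups, at -0.56 ± 0.19 and -0.48 ± 0.14, and were not called (adjusted p = 0.168 and 0.142 in edgeR). How many of all genes did not overlap was not counted. Itga8 (-0.32 ± 0.27), Itgb1 (-0.17 ± 0.13) and Itgb5 (0.03 ± 0.11) overlapped.

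The 5 calls rested on few retinas. They fell to 0 when animal 5, 9, 11 or 12 was left out as well, to 2 without animal 8, to 3 without animal 7 and to 1, Fn1, when the summed level of 4 Y-linked genes was a covariate. That level was 282 to 324 CPM in IC100 animals 9, 11 and 12, 7.95 to 9.84 CPM in O2-PBS animals 5, 6 and 7 and 230 CPM in animal 8. Its part in the 5 calls was not tested beyond this covariate.

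The third comparison sets IC100-treated OIR retinas against room air. It shares its groups with the 2 comparisons above, so the values stand side by side. With 12 animals edgeR called 0 of the 10 genes, and 0% of all tested genes in each direction, with 6 of the 10 and 2183 of all genes at an unadjusted p under 0.05. DESeq2 called 1 of the 10, and 212 genes higher and 68 lower in all. A lens level covariate raised the count from 0 to 7, all higher in O2-IC100 and with Itgav and Itgb5 among them. Lens markers summed to 1030000 CPM in animal 10 and 9.63 to 29.4 CPM in the other O2-IC100 retinas. The share of all genes called under that covariate was not counted.

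Without animal 10, 1 of the 10 genes was called higher (Itga1, 0.85 ± 0.19) and 0 lower, against 0.947% higher and 0.617% lower of all tested genes. Tgm2 (0.76 ± 0.22), Itgb1 (0.52 ± 0.13), Itga4 (0.45 ± 0.18) and Itga5 (0.54 ± 0.24) also did not overlap with RA-PBS and were not called, Itgb1 because its fold of 1.44 was under 1.5. The share of all genes without overlap was not counted here either. Fn1 (0.25 ± 0.27), Itgb3 (0.44 ± 0.31), Itga8 (-0.05 ± 0.27), Itgav (-0.29 ± 0.14) and Itgb5 (-0.10 ± 0.11) overlapped. The Itga1 call was lost without animal 2, 7, 9, 11 or 12, and the count of calls was 2 without animal 3 or 5 and 3 without animal 4.

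**Figure D2:**
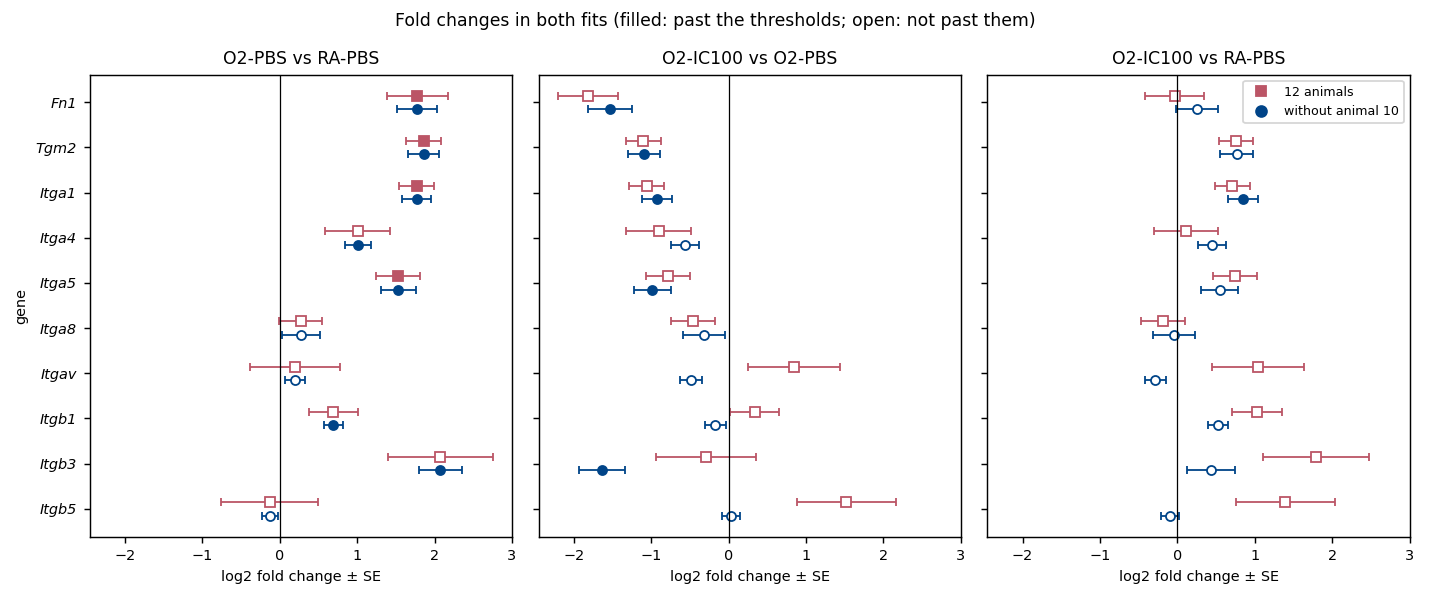
Log2 fold change ± SE of each gene in the 3 comparisons, with squares for the fit of 12 animals, circles for the fit without animal 10 and filled symbols for calls. The values of O2-PBS against RA-PBS coincide in both fits with narrower bars without animal 10, and Itgav and Itgb1 change side between the fits against O2-PBS.

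Levels were also taken per kb of exon length to set genes side by side. The length joins all annotated exons of a gene, not those of the transcripts expressed, so the order of genes is approximate. On this scale Itgb1 and Itgb5 were the most abundant in room air, at 19.2 ± 3.5 and 16.1 ± 2.61 CPM per kb (SD, n = 4). Fn1 (7.68), Itga4 (7.19) and Itgav (5.06) followed, then Tgm2 (1.01), Itga5 (0.955), Itga1 (0.612), Itga8 (0.345) and Itgb3 (0.175). Animals of neighbouring genes in this order overlapped except between Itgb5 and Fn1, between Itgav and Tgm2 and, narrowly, between Itga8 and Itgb3.

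In O2-PBS the order was Itgb1 (31), Fn1 (26.3 ± 8.87), Itgb5 (14.7), Itga4 (14.5), Itgav (5.8), Tgm2 (3.68), Itga5 (2.75), Itga1 (2.09), Itgb3 (0.743) and Itga8 (0.416). Fn1 thus passed Itgb5, and Itgb3 passed Itga8, with no overlap between animals in either pair. In O2-IC100 without animal 10, Fn1 (9.02 ± 0.624) was again under Itgb5 (14.9 ± 0.137), and Itgb3 (0.234) was again last after Itga8 (0.33).

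**Figure D3:**
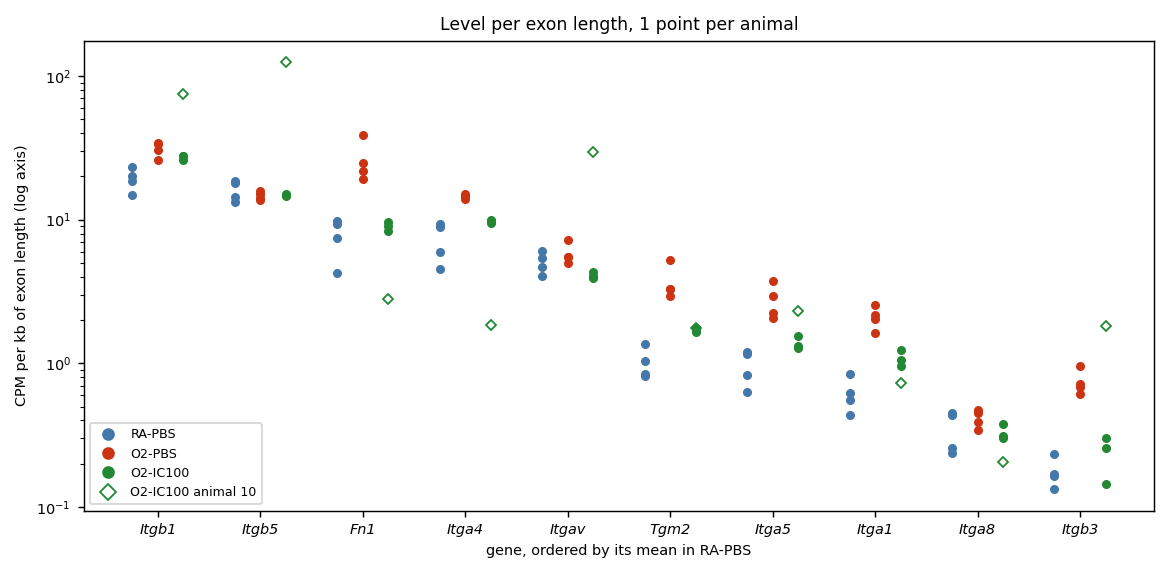
CPM per kb of exon length on a log axis, 1 point per animal, for the genes ordered by their mean in RA-PBS, with the open diamond marking O2-IC100 animal 10. Itgb1 and Itgb5 lead in room air at 19.2 and 16.1 CPM per kb, and Itgb3 is last at 0.175.

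Subunits that share a partner differed from each other within the retina. Itgb3 and Itgb5 both pair with Itgav, and the log2 ratio of Itgb3 to Itgb5 was -5.80 ± 0.37 (SD, n = 4) in RA-PBS, -3.59 ± 0.37 in O2-PBS and -5.32 ± 0.55 (n = 3) in O2-IC100 without animal 10. O2-PBS did not overlap with either group, and animal 10, where both genes were high, had a ratio of -5.35 inside its group. The ratio is of CPM, not per length.

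Itga5 to Itgav, the α subunits of 2 fibronectin receptors, had a log2 ratio of -3.56 ± 0.53 in RA-PBS, -2.22 ± 0.30 in O2-PBS and -2.71 ± 0.16 in O2-IC100 without animal 10. The last 2 groups met at -2.53, and animal 10 had -4.78. Itga5 to Itga8 was 0.91 ± 0.14, 2.12 ± 0.61 and 1.48 ± 0.06, and animal 10 had 2.92. Itgb3 to Itgb1 was -6.25 ± 0.38, -4.86 ± 0.17 and -6.40 ± 0.51, and animal 10 had -4.82, inside the O2-PBS range. Fn1 to Itgb1, ligand to receptor subunit, was 0.15 ± 0.77, 1.23 ± 0.32 and -0.08 ± 0.11, with animal 10 at -3.21.

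**Figure D4:**
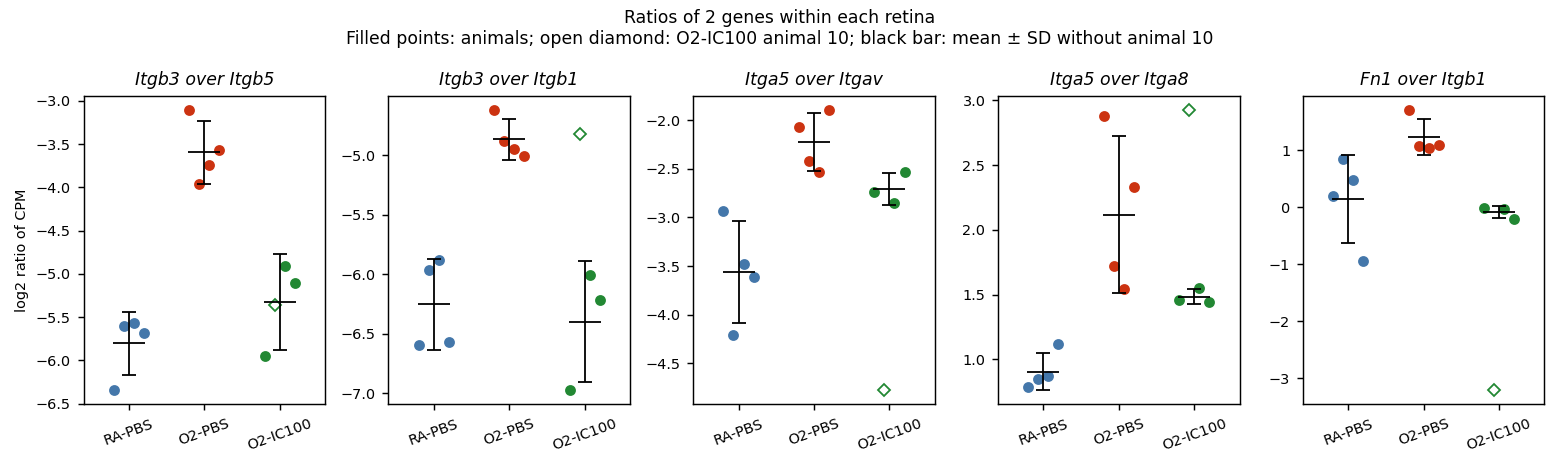
Log2 ratio of CPM of 2 genes within each retina, by group, with an open diamond for O2-IC100 animal 10 and a bar for mean ± SD without that animal. The ratio of Itgb3 to Itgb5 is highest in all 4 O2-PBS retinas. Animal 10 leaves its group in the ratios of Itga5 to Itgav (-4.78), Itga5 to Itga8 (2.92), Itgb3 to Itgb1 (-4.82) and Fn1 to Itgb1 (-3.21).

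Summed markers of vessel cells were higher in every O2-PBS retina than in every RA-PBS retina. The same held for Fn1, Tgm2, Itga1, Itga4, Itga5, Itgb1 and Itgb3, while Itga8, Itgav and Itgb5 overlapped between these groups. The summed level of 10 endothelial markers was 195 to 274 CPM in RA-PBS, 406 to 468 CPM in O2-PBS, 305 to 341 CPM in O2-IC100 animals 9, 11 and 12 and 59.8 CPM in animal 10. That of 8 mural cell markers was 170 to 199, 349 to 506, 304 to 366 and 707 CPM. All 10 endothelial and all 8 mural markers were detected in each group. In bulk retina, more cells of a type and more RNA per cell cannot be told apart.

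Relative to the endothelial sum, the log2 ratio of Fn1 was -1.49 ± 0.41 (SD) in RA-PBS, -0.54 ± 0.43 in O2-PBS and -1.62 ± 0.16 in O2-IC100 without animal 10. Itgb3 gave -7.88 ± 0.40, -6.64 ± 0.27 and -7.94 ± 0.50 on the same scale, and Tgm2 -5.71 ± 0.34, -4.71 ± 0.40 and -5.36 ± 0.03. All 4 O2-PBS retinas lay above the others in these 3 ratios, animal 10 set aside. The same held for Itga1 (-4.43 ± 0.48, -3.49 ± 0.19 and -4.0 ± 0.11) and Itga5 (-5.71 ± 0.33, -5.03 ± 0.36 and -5.58 ± 0.08). Itgb5 went the other way and was lowest in O2-PBS (-2.08 ± 0.17, -3.05 ± 0.16 and -2.62 ± 0.08). Mean ratios of Itgav and Itga8 were also lower in O2-PBS than in RA-PBS, with overlap. Relative to the mural cell sum, Itgb3 (-7.53 ± 0.29, -6.57 ± 0.26 and -7.94 ± 0.53) and Itga1 (-4.07 ± 0.33, -3.42 ± 0.1 and -4.01 ± 0.07) again stood apart in O2-PBS. On that scale Fn1 (-1.13 ± 0.61, -0.47 ± 0.38 and -1.62 ± 0.25), Tgm2 (-5.35 ± 0.33, -4.63 ± 0.44 and -5.37 ± 0.10), Itga4 and Itga5 overlapped between O2-PBS and RA-PBS. Itgb1 (-1.27 ± 0.17, -1.71 ± 0.13 and -1.54 ± 0.14) was lower in every O2-PBS retina than in any RA-PBS retina. So were Itgav (-1.8 ± 0.26, -2.73 ± 0.34 and -2.88 ± 0.18) and Itgb5 (-1.72 ± 0.21, -2.98 ± 0.32 and -2.62 ± 0.16). Itga8 was also lower on average, and its 2 groups met at -6.71. Relative to the endothelial sum, Itga4 overlapped between RA-PBS and both other groups, at -1.31 ± 0.55, -1.09 ± 0.13 and -1.25 ± 0.06, as did Itgb1, at -1.63 ± 0.41, -1.78 ± 0.13 and -1.54 ± 0.05. What part cell number has in these differences was not tested.

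Glial and immune markers were measured as well. Summed markers of astrocytes and reactive glia were 155 to 561 CPM in RA-PBS, 447 to 632 CPM in O2-PBS and 238 to 322 CPM in O2-IC100 without animal 10, and those of microglia were 47.3 to 86, 77.8 to 98.1 and 92 to 112 CPM. Their part in the levels of the 10 genes was not tested.

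**Figure D5:**
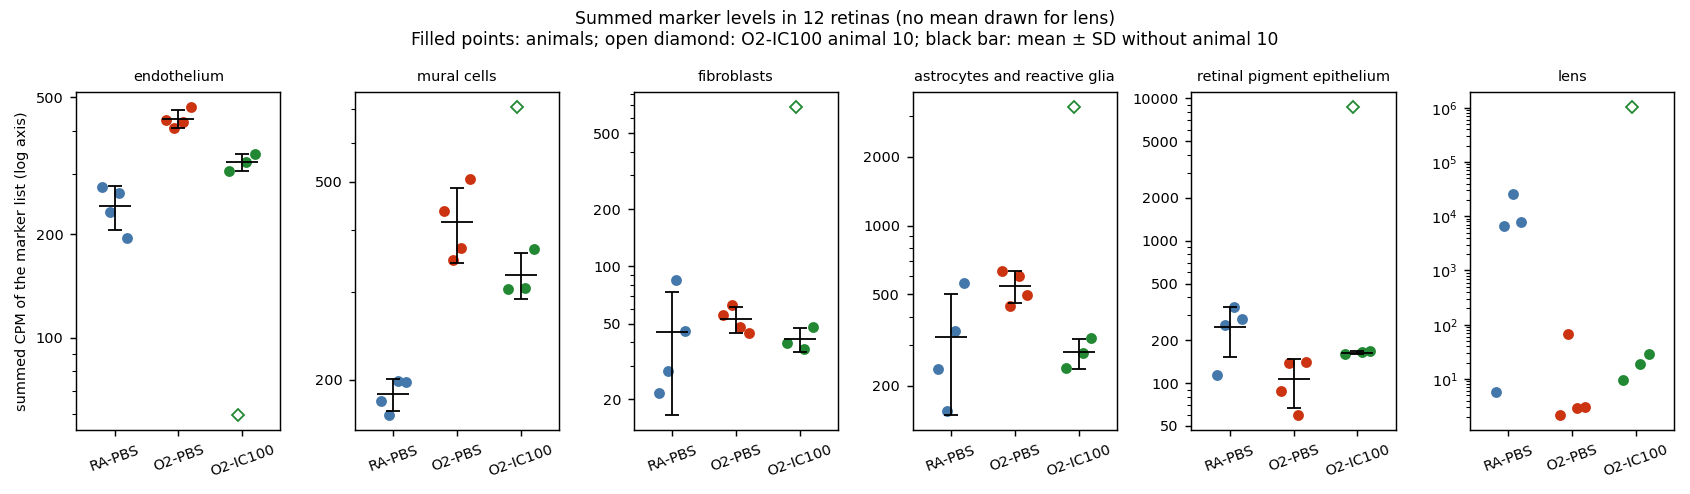
Summed CPM of 6 marker lists on log axes in the 12 retinas, by group, with an open diamond for O2-IC100 animal 10 and a bar for mean ± SD without that animal, omitted for lens. The lens sum of animal 10 is scaled by its small TMM factor of 0.324. Endothelial sums order the groups as RA-PBS (195 to 274), O2-IC100 without animal 10 (305 to 341) and O2-PBS (406 to 468).

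Animal 10 split the integrins. Against the mean of the other 3 IC100 retinas, Itgb5 was 8.41 times, Itgb3 7.85 times, Itgav 7.16 times and Itgb1 2.75 times as high in it, all outside the range of the other 11 retinas. Fn1 (0.314 times), Itga4 (0.191 times) and Itga8 (0.623 times) were below all 11. Itga5 (1.69 times), Itga1 (0.666 times) and Tgm2 (1.03 times) were inside that range. Lens, retinal pigment epithelium, fibroblast, mural, blood, microglia (400 CPM), Müller glia (7760 CPM) and astrocyte and reactive glia (3290 CPM) markers were all higher in animal 10 than in any other retina, and the part of each in these levels was not tested.

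The likeness of genes over the 11 retinas without animal 10 is given as Pearson r of log2 CPM, a description over animals that share the same 3 groups. Among 14954 genes with a mean of at least 1 CPM, the 5 most like Fn1 were Pfkp (0.986), Muc2 (0.982), Myo10 (0.982), Bcl2l11 (0.98) and Kit (0.979). For Tgm2 they were Rfx2 (0.989), Pbxip1 (0.985), Jak3 (0.984), Tnip2 (0.98) and Slc25a37 (0.98). For Itgb3 they were Ehd2 (0.976), Igfbp3 (0.972), Cd248 (0.969), Agtpbp1 (0.969) and Slc25a37 (0.966). Within the 10 genes, Tgm2 was the closest to Fn1 (0.933), Itga1 (0.943), Itga4 (0.918), Itga5 (0.917) and Itgb3 (0.938), while Itgb5 was the least like 8 of the other 9.

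The remaining integrin subunits give the setting for the 8 described here. Of 16 tested, edgeR without animal 10 called 5 higher in O2-PBS than in RA-PBS and 0 lower, against 4.09% higher and 2.18% lower of all tested genes. The median over the 16 was a log2 fold change of 0.27. Itgax (2.24 ± 0.76), Itgam (1.02 ± 0.18) and their partner Itgb2 (1.62 ± 0.37) are leukocyte integrins, Itga2 (1.06 ± 0.33) binds collagen, and Itga9 (0.64 ± 0.15), named after its value was seen, binds tenascin and fibronectin splice forms. Itgax rested on means of 0.148 and 0.716 CPM, and its call was lost in 13 of 22 alternatives, among them without any 1 of animals 1, 2, 5 to 9, 11 or 12 (adjusted p up to 0.208). That of Itga2 was lost in 8 of 23, among them without animal 1, 4, 5, 6 or 7 (adjusted p up to 0.174). Between O2-IC100 and O2-PBS, 0 of 16 were called by edgeR and 0 by DESeq2, with 4 at an unadjusted p under 0.05, a level that 3201 of all 16688 genes reached.

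Other ligands of integrins went in both directions. Of 18 tested, 4 were called higher in O2-PBS than in RA-PBS and 1 lower without animal 10, against 4.09% and 2.18% of all tested genes. Tgfbi (1.69 ± 0.31), Thbs2 (1.47 ± 0.28), Emilin1 (0.70 ± 0.17) and, named after its value was seen, Postn (0.67 ± 0.15) are matrix proteins. Osteopontin (Spp1) fell from 10.8 ± 1.94 (SD) to 6.59 ± 0.426 CPM, a log2 fold change of -0.72 ± 0.15. In O2-IC100 against O2-PBS 0 of 18 were called, with 7 at an unadjusted p under 0.05 (3201 of all 16688 genes) and 1 called by DESeq2. Against RA-PBS, O2-IC100 was called higher for Thbs2 (1.21 ± 0.30) and Postn (0.66 ± 0.16) and lower for Spp1 (-0.65 ± 0.17), where 0.947% and 0.617% of all tested genes were. These 3 calls were lost in 12, 9 and 10 of 23 alternatives, each of them without animal 6, 7, 9, 11 or 12, that of Thbs2 also without 1, 2, 5 or 8, that of Postn without 2 and that of Spp1 without 1 or 8 (adjusted p up to 0.372).

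Of 25 tested proteins of adhesion complexes, which link integrins to actin, 3 were called higher in O2-PBS than in RA-PBS and 0 lower, against 4.09% and 2.18% of all tested genes. These were Vcl (0.97 ± 0.19), Flna (0.92 ± 0.17) and Vasp (0.65 ± 0.11), the genes of vinculin, filamin A and an actin regulator. In O2-IC100 against O2-PBS, Flna (-0.77 ± 0.18) and Tns2 (-0.76 ± 0.18), the gene of a tensin, were called lower, as were 0.731% of all tested genes. Both calls were lost in 11 of 23 alternatives, among them the Y-linked covariate and the fits without any 1 of the O2-PBS or remaining O2-IC100 animals (adjusted p up to 0.329). Flna had 102 ± 25.9, 194 ± 40.3 and 112 ± 7.84 CPM (SD) in RA-PBS, O2-PBS and O2-IC100 without animal 10. Against RA-PBS 0 of 25 were called by edgeR and 0 by DESeq2, with 9 at an unadjusted p under 0.05, a level that 2594 of all 16688 genes reached.

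Of 7 tested relatives of Tgm2 in the transglutaminase family, edgeR without animal 10 called 0 in each comparison. Of all tested genes it called 4.09% higher and 2.18% lower between O2-PBS and RA-PBS. The shares were 0.216% and 0.731% between O2-IC100 and O2-PBS, and 0.947% and 0.617% between O2-IC100 and RA-PBS. A count of 0 in 7 is near these shares. Between O2-PBS and RA-PBS all 7 log2 fold changes were positive (median 0.22). There 1 had an unadjusted p under 0.05, as did 3648 of all 16688 genes, and DESeq2 called 1. In the other comparisons 0 reached that level. Of 13 membrane partners of integrins, Plaur (1.66 ± 0.42), the urokinase receptor, and Cd44 (1.06 ± 0.34), the hyaluronan receptor, were called higher in O2-PBS than in RA-PBS, against 4.09% of all tested genes. Cd44 varied widely in O2-PBS, at 20.1 ± 11.9 CPM (SD), and its call was lost in 12 of 23 alternatives, among them without animal 1, 2, 4, 5, 7, 9, 11 or 12 (adjusted p up to 0.264), with a log2 fold change of 0.56 without animal 5. In the same list, 0 of 13 were called in O2-IC100 against O2-PBS, against 0.216% higher and 0.731% lower of all tested genes. An unadjusted p under 0.05 was reached by 1 of 13 and by 3201 of all 16688 genes. DESeq2 called 1 of the 13, and 81 genes higher and 313 lower in all.

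With all 12 animals, edgeR called 0 genes of these 5 lists in each comparison. Of all 16489 tested genes it called 0.782% higher and 0.0243% lower between O2-PBS and RA-PBS, and 0% in both IC100 comparisons. At an unadjusted p under 0.05 it held 0 to 7 of a list. Over all genes that level held 1174 (O2-PBS against RA-PBS), 2784 (O2-IC100 against O2-PBS) and 2183 (O2-IC100 against RA-PBS). DESeq2 called 0 to 2 of a list. In the same order of comparisons it called 352, 28 and 212 genes higher and 60, 84 and 68 lower in all. Their median log2 fold changes between O2-PBS and RA-PBS without animal 10 were 0.08 to 0.27, against 1.27 for the 10 genes, which were listed with their values known.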

How the data were processed

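RNA-seq of 12 retinas was analysed. The authors pseudoaligned polyA-selected paired-end 150 bp reads to mouse GRCm39_104 with kallisto and summarised genes with tximport, so the deposited values are expected counts per gene without scaling to depth (tool versions and use of strand are not given in the sources used here). Symbols matched 35374 of 36131 identifiers. Members and lists were chosen with earlier results of these data known.

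Counts were rounded and fitted with edgeR 4.0.16 (TMM, filterByExpr, robust quasi-likelihood, R 4.3.3), all groups in one model without covariates, with and without animal 10. DESeq2 1.42.0, limma 3.58.1 voom and other settings were alternatives. CPM use the TMM factors of 12 animals. A count of 3 corresponds to 0.144 to 0.378 CPM. Each library is labelled as a separate animal. Named genes are the 10 members, up to 4 called genes per list and comparison with the largest change, and the 5 genes most like Fn1, Tgm2 and Itgb3.

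Exon lengths and overlaps come from GENCODE vM21 (GRCm38), promoter windows from RefSeq; builds differ, so no gene positions are given. Besides Cerkl, exons of Rprd1b and Gm20412 overlap Tgm2, Gm49395 Itga1, Apol7d Fn1, E030013I19Rik Itga8 and Gm13684 Itgav. The edgeR procedure was tested on simulated data of O2-PBS against RA-PBS with 11 animals (16432 genes). There it recovered 91% of 200 changed genes, and 12 of 194 calls were false. The simulated counts had the same setting of spread for every gene, and only genes above a minimum level were changed. They held no lens or Y-linked differences between animals. Whether these rates hold for the measured retinas was not tested.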

Additional observations from a re-analysis of the deposited data

Results flagged for a closer look

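Each of the 10 genes was examined in each group of 4 retinas (30 in all) for a retina that lay apart from the other 3 by Dixon's test at the 95% level, which chance gives in about 1 of 20 groups. Of 6 such values, 5 belonged to O2-IC100 animal 10, namely Itga4 at 25.9 CPM (below its group), Itgav at 316 CPM, Itgb1 at 306 CPM, Itgb3 at 10.8 CPM and Itgb5 at 444 CPM (above it). The other was Tgm2 at 24 CPM in O2-PBS animal 5, above 3 retinas at 13.5 to 15.2 CPM. Fn1 (457 CPM) and Itgb3 (5.66 CPM) were also highest within O2-PBS in animal 5, without passing that limit. Animal 10 is the retina with 58.98% crystallin counts. The causes were not tested.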

How the results depend on the processing

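Without animal 10, the 7 genes called between O2-PBS and RA-PBS were counted in each alternative. The 4 called with all 12 animals became 7 in the fit of only those groups, 7 with the lens covariate and 2 to 7 with 1 animal left out. Those with the lens covariate held Itgav and not Itga4. Between O2-IC100 and O2-PBS, the count of 0 with 12 animals became 3 with DESeq2, 5 with the Y-linked covariate and 0 to 5 with 1 animal left out (5 without animal 10). The 5 with the Y-linked covariate were not those without animal 10. They were Fn1, Tgm2, Itga1 and Itga4, called lower, and Itgb5, called higher. The count of 5 without animal 10 became 1 with the Y-linked covariate, 3 at an adjusted p under 0.05 and 0 to 5 with 1 more animal left out. Between O2-IC100 and RA-PBS, the count of 0 with 12 animals became 1 with DESeq2, 7 with the lens covariate and 0 to 1 with 1 animal left out. There the count of 1 without animal 10 became 2 with DESeq2, 3 with the lens covariate, 0 in the fit of only those groups, 0 at an adjusted p under 0.05 and 0 to 3 with 1 more animal left out. Calls over all genes were counted for the main edgeR fits and DESeq2 only, so the other counts have no such share beside them.

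Log2 fold changes that turned direction with 12 animals were mostly those animal 10 decides. Under the lens covariate they were Itgb5 at 0.59 (O2-PBS against RA-PBS), Itgav at -0.33 and Itgb1 at -0.086 (O2-IC100 against O2-PBS) and Itga4 at -0.42 (O2-IC100 against RA-PBS). Itga4 in the last comparison was -0.109 with voom and -0.091 with the Y-linked covariate, under which Itgav between O2-PBS and RA-PBS was -0.41. Leaving out 1 animal, O2-IC100 against O2-PBS ranged from -0.48 to 1.12 for Itgav, -0.17 to 0.49 for Itgb1 and -1.64 to 0.054 for Itgb3. O2-IC100 against RA-PBS ranged from -0.24 to 0.25 for Fn1, -0.059 to 0.45 for Itga4, -0.29 to 1.31 for Itgav and -0.10 to 1.68 for Itgb5.

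Without animal 10, values near 0 turned: Itgb5 against O2-PBS was 0 with upper quartile factors, -0.022 with the Y-linked covariate and -0.017 to 0.065 with 1 animal left out, and Itga8 against RA-PBS was 0.027 with voom and -0.199 to 0.11 with 1 animal left out. The cause was not tested, beyond the fewer samples of the fits that leave animals out. No paired analysis was possible because the groups share no animal numbers. Among the 10 genes, depth limits Itgb3 and Itga8 most, with 12 to 94 counts per retina.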
